A study of Mus musculus with 6 samples.

Results

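The genes described here are 32 genes of homologous recombination and of the Fanconi anaemia repair pathway, measured as messenger RNA in whole mouse testes. They were taken by name from a table of 22274 genes, and all 32 were in the table and passed the filter on low counts. Homologous recombination mends a broken chromosome by copying an intact sister or homologue. Broken ends are trimmed to single strands, BRCA2 helps to build a protein filament on them that finds the matching DNA, and the joined molecules are later taken apart. The Fanconi proteins recognise crosslinked DNA, tag the FANCI-FANCD2 pair with ubiquitin and pass the lesion on to the recombination proteins. In the testis, dividing spermatogonia use these genes when they copy their DNA, and many of them act again in meiosis, when the cell cuts its own chromosomes.

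The 6 libraries came from testes labelled day 9, with the starting point of the day count left unstated. In 3 knockout libraries (cKO), floxed Dcaf2 was deleted in germ cells by Stra8-Cre, whose promoter is active in spermatogonia, and 3 libraries are labelled control. Neither the control alleles nor the mouse strain is stated in the labels. DCAF2 is the substrate receptor of a CRL4 ubiquitin ligase that acts on chromatin during DNA replication, and the study asked whether it is needed for spermatogenesis. Whether the numbered libraries stand for separate animals is not stated, and the p-values therefore reflect only how much these libraries vary, part of which may be technical. Values of single libraries are always listed in the order of libraries 1, 2 and 3.

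Library totals ran from 15407007 to 18372964 counts. Levels are given as CPM (counts relative to a library size scaled with TMM, edgeR's default). Differences are log2 fold changes of knockout against control, tested with edgeR's quasi-likelihood test over all 14424 tested genes. A gene passed, or was called, when its Benjamini-Hochberg adjusted p was under 0.05. The transcript of Dcaf2, now named Dtl, was at 42.6, 50.3 and 77.3 CPM in control testes against 41.7, 43.8 and 51.4 CPM in knockout testes (-0.31, edgeR adjusted p = 0.281). That difference was -0.51 with control library 1 left out (0.0321) and -0.02 with control library 3 left out (0.923). The count covers the whole gene, deleted part or not, and somatic cells keep the gene, which makes this a weak check of the labels. The germ-cell marker list was summed at 1890 to 2710 CPM in controls and 772 to 946 CPM in knockouts, with 22 of 23 tested markers lower (19 to 22 with any 1 library left out). The Sertoli cell markers were at 5130 to 6860 and 7060 to 7840 CPM, with 8 of 20 higher (2 without knockout library 2, 13 without control library 1). Leydig cell markers summed to 486 to 952 and 1080 to 1120 CPM (3 of 9 higher), macrophage markers to 92.2 to 110 and 127 to 148 CPM (2 of 9 higher) and endothelial markers to 188 to 216 and 261 to 291 CPM (3 of 6 higher, and 0 without knockout library 1 or 2). Without control library 1 the Leydig and macrophage counts were 8 and 4. In that setting 16.4% of all tested genes were higher, and 3.24% and 3.1% without knockout library 1 and 2. Of 8 peritubular myoid markers 1 was higher, and of 5 erythroid markers 0 passed, with 0 at an unadjusted p under 0.05 and 0 with DESeq2 or limma-voom. No marker of these lists that was in the table was at 0 in every library. Over all tested genes 13.9% were lower and 11.1% higher. In whole testes, fewer cells of a type and less RNA per cell cannot be told apart, and the part of these marker changes in the repair gene results was not tested.

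Promoters of some of the genes share a short word bound by E2F factors, which switch on genes of DNA synthesis, and these stretches are shown because they group genes that fell with genes that did not pass. RefSeq promoters (build GRCm38.p6, 250 bases before to 50 after a start site) were found for 24 of the 32 genes, with 28 promoters. The words TTTCCCGC, TTTCGCGC, TTTGCCGC and TTTGGCGC, on either strand, were in 6 of these 28 promoters, from 5 genes, against 3.77% of 14346 promoters of tested genes and 2.26% of all 32851. None of the matches printed overlapped a CCAAT match. Capitals mark the word. The stretches are given 5′ to 3′ on the gene's strand, and they stop at the start site unless the word lies at or past it.
Bard1, chr1:71103144-71103211, minus strand: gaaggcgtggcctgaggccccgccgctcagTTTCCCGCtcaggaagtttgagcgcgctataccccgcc
Rad51c, chr11:87404941-87404970, minus strand: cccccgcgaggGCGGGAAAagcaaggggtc
Rad51c, another start site, chr11:87404477-87404506, minus strand: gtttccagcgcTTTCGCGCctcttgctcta
Brca2, chr5:150522423-150522490, plus strand: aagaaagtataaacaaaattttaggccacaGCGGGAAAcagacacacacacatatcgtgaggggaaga
Fancg, chr4:43010316-43010383, minus strand: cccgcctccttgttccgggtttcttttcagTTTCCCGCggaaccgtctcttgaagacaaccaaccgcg
Rmi1, chr13:58402612-58402641, plus strand: ccccgagggagTTTGGCGCgattggaggag
Fanci, whose transcript fell furthest, had none of these words, and the 100 bases before its start site are shown for comparison.
Fanci, chr7:79392238-79392337, plus strand: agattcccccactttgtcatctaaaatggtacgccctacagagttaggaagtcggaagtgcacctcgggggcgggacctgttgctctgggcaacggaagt
Of the 6 genes with a promoter entry whose transcripts fell, 2 held an E2F word (Bard1 and Rad51c), and of the 18 others 3 did (Brca2, Fancg and Rmi1). The word TTTGAA of mitotic promoters was in 3 of the 28 promoters (10.7%, against 12.0% of promoters of tested genes) and CCAAT in 19 (67.9%, against 37.6%). CNCCTCAG, a word bound by the meiotic regulator STRA8, was in 2 (7.14%, against 9.1%), those of Fancf and Rad51b. A match describes letters and not a bound site.

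Of the 32 genes, 8 fell in the knockouts and 0 rose, where 13.9% of all tested genes fell and 11.1% rose. Those that fell were Fanci, Rad51c, Fancd2, Exo1, Rad54l, Palb2, Bard1 and Fance. The fall was moderate, with log2 fold changes from -0.85 to -0.36, and 0 of the 32 genes changed by 2-fold or more. The median of the 32 was -0.24 beside 0.03 for all tested genes, and 28 of the 32 values were negative. All knockout libraries lay below all controls for 11 of the 32 genes (22.1% of tested genes) and above them for 1 (22.5%). At an unadjusted p under 0.05 there were 10 lower and 0 higher genes, where 20.0% of tested genes were lower and 19.1% higher. DESeq2 gave 9 lower and 0 higher (15.8% of tested genes lower), and limma-voom 8 and 0 (13.4%). The number of lower genes was 16 without control library 1 (19.7% of tested genes) and 6 without control library 2 (15.7%). It was 4 once control library 3 (7.63%), knockout library 1 (6.59%) or knockout library 2 (6.19%) was left out. Leaving out knockout library 3 gave 5 (8.56%). Leaving out a library also leaves the test less power. Scaled to the germ-cell markers, all 32 genes were higher, as were 92.0% of tested genes: that scaling moved the median of all genes by 1.39, and the median of the 32 genes then lay 0.26 under it, against 0.27 under it with TMM.

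**Figure D1:**
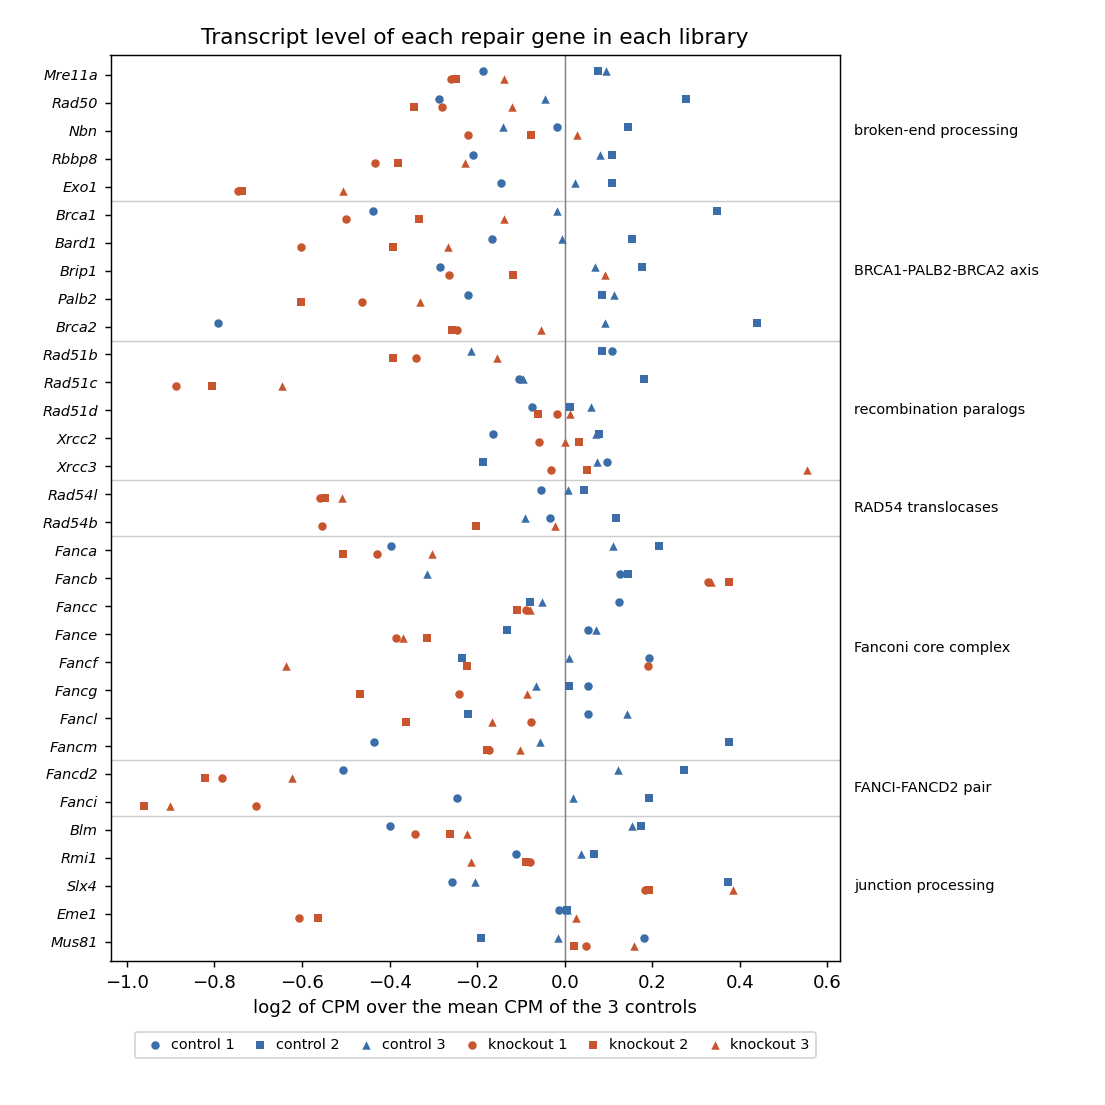
Level of each of the 32 genes in each library, as log2 of CPM over the mean CPM of the 3 controls, with controls in blue, knockouts in red, and marker shape giving the library number. For Rad51c, Rad54l, Fancd2, Fanci and Exo1 the 3 knockout points lie left of all control points, while for Brca2 control library 1 lies left of the knockouts.

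FANCI and FANCD2 form a clamp that closes around DNA once it carries ubiquitin, and the transcripts of both fell. Fanci (ENSMUSG00000039187) was at 31.2, 42.3 and 37.5 CPM in control testes against 22.7, 19.0 and 19.8 CPM in knockout testes. All knockouts lay below all controls. It fell 1.81-fold (-0.85 on the log2 scale, SE 0.137, edgeR adjusted p = 0.00371) and passed whichever library was left out (-0.99 to -0.76). Fancd2 (ENSMUSG00000034023), its partner, was at 46.6, 80.0 and 72.1 CPM in control testes against 38.5, 37.5 and 43.0 CPM in knockout testes. Control library 1 was close to the knockouts and the other controls were well above them. The fall was 1.67-fold (-0.74, SE 0.182, edgeR adjusted p = 0.0193). Leaving out control library 1 gave -0.96 (adjusted p = 5.02e-05). It no longer passed once control library 3 (-0.67, adjusted p = 0.0768) was left out, or knockout library 1, 2 or 3 (-0.71, -0.70 and -0.80, adjusted p = 0.0809, 0.0831 and 0.0508).

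The Fanconi core complex, the ubiquitin ligase that acts on that pair, had 1 lower gene of 8 (12.5%, beside 13.9% of all tested genes), with a median of -0.19. Fance (ENSMUSG00000007570), which bridges the core complex and FANCD2, was at 24.0, 21.1 and 24.3 CPM in control testes against 17.7, 18.6 and 17.9 CPM in knockout testes. The groups did not overlap, and the fall was 1.28-fold (-0.36, SE 0.111, edgeR adjusted p = 0.0441). It missed the threshold without control library 3 or knockout library 1, 2 or 3 (-0.32, -0.34, -0.38 and -0.35, adjusted p = 0.14, 0.144, 0.124 and 0.129). Fanca, a scaffold subunit of the core, was at 31.4, 48.0 and 44.6 CPM in control testes against 30.7, 29.1 and 33.5 CPM in knockout testes (-0.41, edgeR adjusted p = 0.0825). Its groups overlapped through control library 1, and without that library it passed at -0.60 (adjusted p = 0.000964). Fancl, the catalytic subunit that transfers ubiquitin, was at -0.20 (95% interval -0.55 to 0.15). Fancm, the translocase that anchors the complex on DNA, was at 29.7, 52.1 and 38.6 CPM in control testes against 35.6, 35.5 and 37.4 CPM in knockout testes (-0.15, edgeR adjusted p = 0.571). Without control library 1 it passed at -0.35 (adjusted p = 0.0403). With control library 2 left out it was at 0.07.

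The other core subunits were Fancb, Fancc, Fancf and Fancg. Fancb was the 1 gene of the 32 with every knockout library above every control, at 6.27, 6.35 and 4.62 CPM against 7.21, 7.45 and 7.24 CPM, but it did not pass (0.34, SE 0.181, edgeR adjusted p = 0.192). It is X-linked in mammals and binds the core complex next to FANCL. Fancc (23.5, 20.4 and 20.8 against 20.3, 20.0 and 20.4 CPM) differed by -0.09 with a 95% interval of -0.34 to 0.15. Control library 2 and knockout library 3 were equal to 3 digits. Fancg differed by -0.26 (edgeR adjusted p = 0.159) and Fancf, counted low at 3.92 to 6.96 CPM in all libraries, by -0.18 (95% interval -0.72 to 0.35).

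Of the 5 genes whose proteins trim broken ends, 1 fell (20.0%, beside 13.9% of all tested genes), and differences among the 5 were not tested. Exo1 (ENSMUSG00000039748), the exonuclease of long-range resection, was at 52.9, 63.1 and 59.5 CPM in control testes against 34.9, 35.1 and 41.2 CPM in knockout testes. It fell 1.58-fold with no overlap (-0.66, SE 0.109, edgeR adjusted p = 0.00421) and passed whichever library was left out. Rbbp8, which encodes CtIP, the cofactor that starts resection, was at 61.4, 76.6 and 75.1 CPM against 52.6, 54.6 and 60.7 CPM. Its groups did not overlap either, but it missed the threshold (-0.34, SE 0.113, edgeR adjusted p = 0.0538). It passed with DESeq2, with upper-quartile and total-count scaling, and without control library 1 (-0.46, adjusted p = 0.00235).

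The 3 genes of the MRE11 complex, which binds the ends first, did not pass. Mre11a, the nuclease, was at 51.5, 61.7 and 62.5 CPM in control testes against 48.9, 49.3 and 53.2 CPM in knockout testes (-0.21, edgeR adjusted p = 0.159, and -0.32 with adjusted p = 0.0111 without control library 1). Rad50, the long coiled-coil ATPase, was at 88.0, 130 and 104 CPM against 88.4, 84.5 and 98.8 CPM (-0.25, edgeR adjusted p = 0.234, and -0.39 with adjusted p = 0.0139 without control library 1). Nbn, the adaptor that recruits ATM, differed by -0.09 (95% interval -0.33 to 0.16), and its groups overlapped.

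Along the BRCA1-PALB2-BRCA2 axis, which acts once the ends are resected, 2 of 5 genes fell (40.0%, beside 13.9% of all tested genes). Both were partners of BRCA1 and BRCA2. Bard1 (ENSMUSG00000026196), the RING partner of BRCA1, was at 28.3, 35.3 and 31.6 CPM in control testes against 20.9, 24.2 and 26.4 CPM in knockout testes. It fell 1.33-fold (-0.41, SE 0.128, edgeR adjusted p = 0.0442). Palb2 (ENSMUSG00000044702), the bridge between BRCA1 and BRCA2, was at 20.7, 25.6 and 26.1 CPM against 17.5, 15.9 and 19.2 CPM, 1.38-fold lower (-0.46, SE 0.134, edgeR adjusted p = 0.0354). Neither gene's groups overlapped, and both kept the call without control library 1 only. Without control library 2 or 3 Bard1 was at -0.34 and -0.42 (adjusted p = 0.0803 and 0.116), and without knockout library 1, 2 or 3 at -0.32, -0.42 and -0.49 (0.166, 0.125 and 0.065). Palb2 was at -0.43 and -0.40 (adjusted p = 0.0616 and 0.126), and at -0.46, -0.39 and -0.53 (0.113, 0.145 and 0.0632), in the same settings.

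Brca1, Brca2 and Brip1 did not pass, and in each of them control library 1 was the lowest control. Brca2, whose protein starts the filament, was at 58.0, 136 and 107 CPM in control testes against 84.6, 84.0 and 96.7 CPM in knockout testes. Control library 1 was below every knockout library and the other controls were above them. With all libraries the difference was -0.18 (SE 0.253, 95% interval -0.76 to 0.39). It was -0.49 without control library 1 (edgeR adjusted p = 0.00569) and 0.08 without control library 2. Brca1, the scaffold that favours resection, was at 61.5, 106 and 82.2 CPM against 58.9, 66.1 and 75.6 CPM (-0.31, edgeR adjusted p = 0.236, and -0.52 with adjusted p = 0.00852 without control library 1). Brip1, a helicase that binds BRCA1, was at 26.8, 36.9 and 34.3 CPM against 27.2, 30.1 and 34.8 CPM (-0.09, edgeR adjusted p = 0.677).

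The 5 recombination paralogs, which steady the filament, differed in their calls: Rad51c fell and the other 4 did not pass. That was 20.0% lower, beside 13.9% of all tested genes. Rad51c (ENSMUSG00000007646), the subunit shared by both paralog complexes, was at 17.9, 21.8 and 18.0 CPM in control testes against 10.4, 11.0 and 12.3 CPM in knockout testes. It fell 1.71-fold with no overlap (-0.77, SE 0.138, edgeR adjusted p = 0.00557) and passed whichever library was left out (-0.85 to -0.69). Xrcc3, its partner in the smaller complex, was at 12.9, 10.6 and 12.7 CPM against 11.8, 12.5 and 17.7 CPM (0.21, 95% interval -0.20 to 0.62), and only knockout library 3 stood above the controls. Rad51d and Xrcc2, which pair with each other, stayed within narrow intervals around 0. Rad51d was at 19.4, 20.6 and 21.3 against 20.2, 19.6 and 20.6 CPM (-0.02, 95% interval -0.26 to 0.22). Xrcc2 was at 15.8, 18.7 and 18.6 against 17.0, 18.1 and 17.7 CPM (-0.01, 95% interval -0.28 to 0.26). Rad51b, the remaining paralog, had 2.76 to 3.90 CPM in all libraries and differed by -0.30 (95% interval -0.78 to 0.19). The 95% interval of Rad51c, -1.09 to -0.46, did not reach those of Rad51d, Xrcc2 or Xrcc3, though the differences between the paralogs were not themselves tested.

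RAD54 proteins are motor proteins that help the broken end invade the matching DNA. Rad54l (ENSMUSG00000028702) was at 32.5, 34.8 and 33.9 CPM in control testes against 22.9, 23.1 and 23.7 CPM in knockout testes, with no overlap. It fell 1.45-fold (-0.54, SE 0.0931, edgeR adjusted p = 0.00502) and passed whichever library was left out. Rad54b, its relative, was at 25.4, 28.2 and 24.4 CPM against 17.7, 22.6 and 25.6 CPM, with knockout library 3 inside the control range (-0.24, SE 0.145, edgeR adjusted p = 0.242). The difference between these 2 genes was not tested.

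None of the 5 genes that dissolve or cut joined DNA molecules passed with edgeR, DESeq2 or limma-voom, and 0 had an unadjusted p under 0.05. Their median was -0.13. Of all tested genes 13.9% were lower and 11.1% higher with edgeR, and 20.0% and 19.1% at that unadjusted p. Blm, the helicase that dissolves double junctions, was at 44.5, 66.2 and 65.3 CPM in control testes against 46.3, 48.9 and 50.3 CPM in knockout testes (-0.27, edgeR adjusted p = 0.202, and -0.46 with adjusted p = 0.00168 without control library 1). Rmi1, its partner, was at -0.13 (95% interval -0.34 to 0.09). Slx4, the scaffold of the structure-specific nucleases, was at 40.0, 61.9 and 41.5 CPM against 54.3, 54.6 and 62.4 CPM (0.26, edgeR adjusted p = 0.281), and was higher without control library 2 (0.47, adjusted p = 0.0111). Of the nuclease pair MUS81-EME1, Mus81 differed by 0.08 (95% interval -0.22 to 0.38). Eme1 was at 14.6, 14.8 and 14.8 CPM against 9.68, 9.97 and 15.0 CPM. Knockout library 3 matched the controls (-0.35, edgeR adjusted p = 0.178, and -0.58 with adjusted p = 0.0408 without that library).

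**Figure D2:**
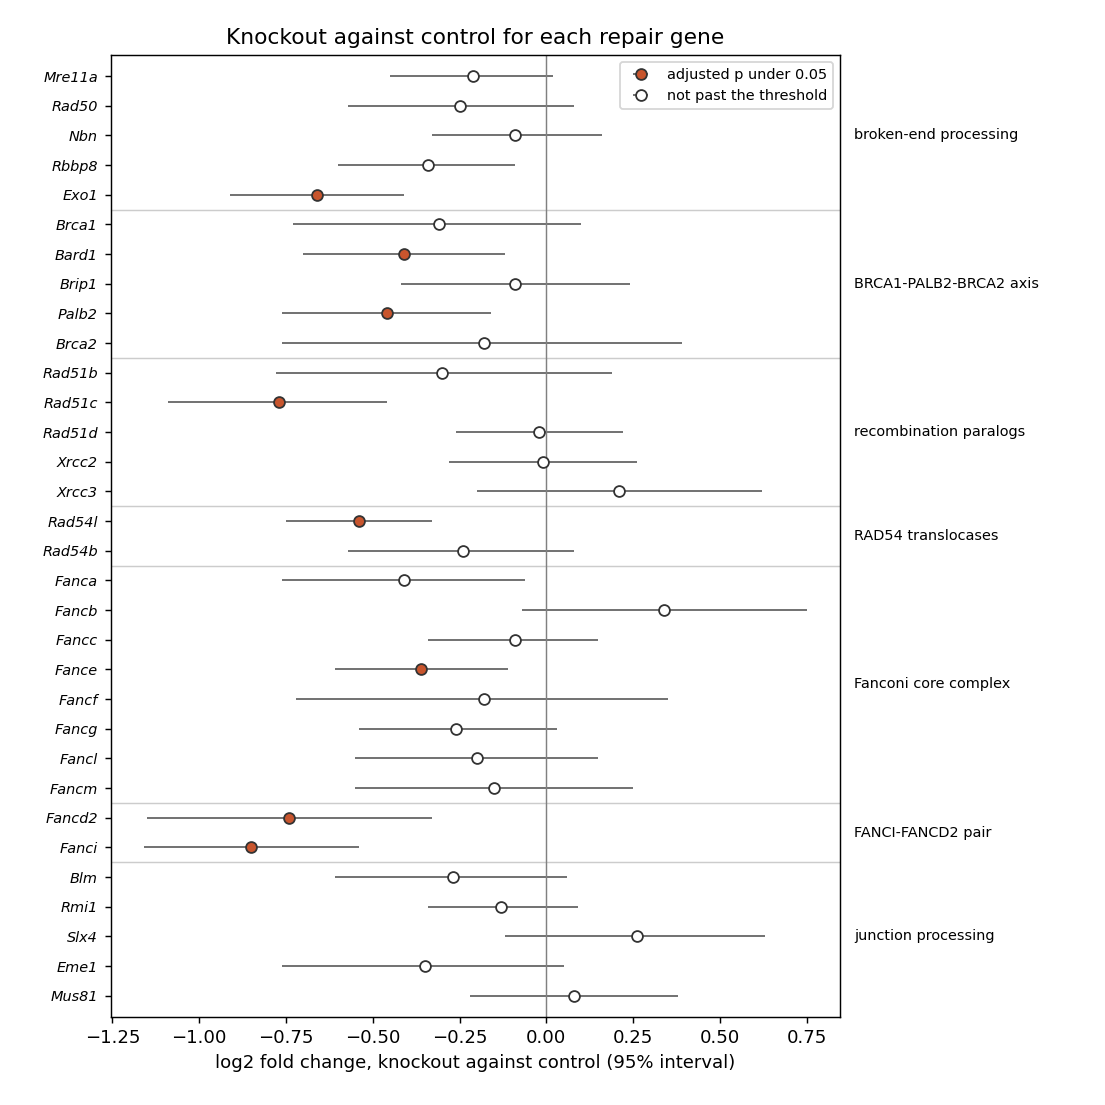
Log2 fold change of each gene, knockout against control, with its 95% interval from edgeR, grouped by role, where filled points passed the adjusted threshold. The 8 filled points run from -0.36 (Fance) to -0.85 (Fanci), and no gene passed above 0. Scaled to the germ-cell markers, all 32 genes were higher, as were 92.0% of tested genes.

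Transcript length moved with the values of control library 1. An implied length per gene was taken from the ratio of the deposited count to the deposited FPKM, which is scaled to length. The 32 genes had a median of 2940 bases, from 1591 (Fance) to 10541 (Brca2), and tested genes one of 2810. The tested genes were split by implied length into 4 classes of like size. In the shortest (up to 1809 bases) control library 1 was 0.33 above the other controls (median, log2), and in the longest (over 4170 bases) 0.33 below them. Control library 2 went the other way, from -0.25 to 0.28. Control library 1 was the lowest control for 21 of the 32 genes (39.9% of tested genes). The median of the 32 in that library was 0.19 below the other controls, against 0.01 above them for all tested genes.

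**Figure D3:**
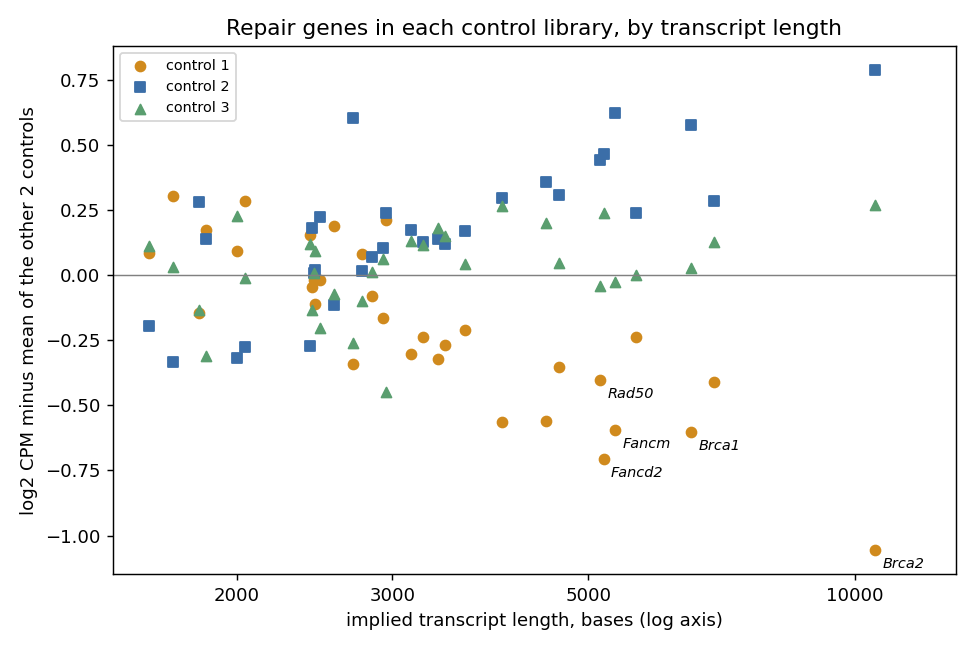
Log2 CPM of each of the 32 genes in a control library minus the mean of the other 2 controls (y axis), against implied transcript length in bases (log axis). Control library 1 falls with length, to its lowest point at Brca2, and control library 2 rises.

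Once a smooth trend on length was taken out of each library, 16 of the 32 genes were lower and 0 higher, where 19.5% of tested genes were lower. Without control library 1 the number was also 16, against 19.7% of tested genes, and 15 genes passed in both settings. These 2 settings are not independent, since control library 1 was low in the longest genes and both act on that. With all 6 libraries the difference of knockout against control also moved with length. Its median was -0.13 in the shortest class, -0.01 and 0.07 in the next classes, and 0.21 in the longest. Taking a trend out of each library removes this difference between the groups as well, and the source of that difference was not tested. Leaving out control library 2, which had the opposite trend, gave 6 lower genes and 1 higher (15.7% and 13.7% of tested genes). The 9 genes of the 32 in the longest class all passed with the trend removed (20.6% of tested genes in that class), where 3 did before (6.82%). These were Rad50, Brca1, Bard1, Brip1, Brca2, Fanca, Fancm, Fancd2 and Fanci. With the trend removed Brca1 was at -0.53 (edgeR adjusted p = 0.00439), Brca2 at -0.47 (0.00899) and Brip1 at -0.34 (0.0246). Rad50 was at -0.41 (adjusted p = 0.00557), Fanca at -0.54 (0.00554) and Fancm at -0.32 (0.048). Of the shorter genes, Mre11a was at -0.27 (0.0328), Rbbp8 at -0.38 (0.0152) and Blm at -0.37 (0.0345). Fance, the shortest gene, lost its call (-0.27, adjusted p = 0.0602). The values of Rad51d, Xrcc2, Nbn and Fancc stayed near 0, at 0.00, -0.05, -0.07 and -0.08. All knockout libraries lay below control libraries 2 and 3 for 21 of the 32 genes (28.4% of tested genes). They lay below control libraries 1 and 3 for 12 (27.2%), and below control libraries 1 and 2 also for 12 (24.1%). What made control library 1 differ by length was not tested.

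**Figure D4:**
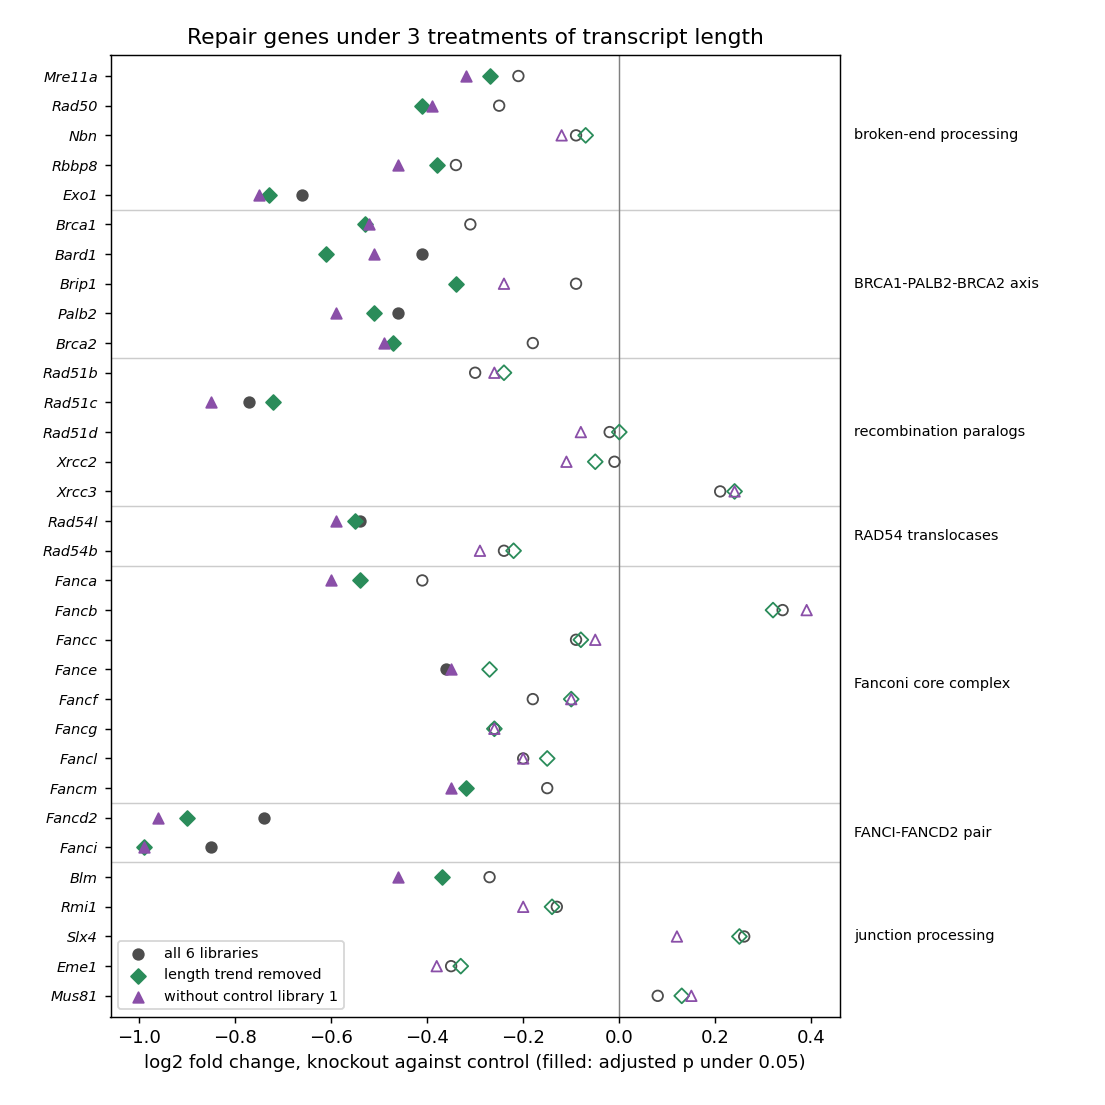
Log2 fold change of each gene with all 6 libraries (circles), with a trend on transcript length removed from each library (diamonds) and without control library 1 (triangles), filled where the adjusted p was under 0.05. The 5 genes of the BRCA1-PALB2-BRCA2 axis are filled as diamonds and 2 of them as circles, while Brip1 is open as a triangle. Of all tested genes 13.9% were lower with all libraries, 19.5% with the trend removed and 19.7% without control library 1. Leaving out control library 2, which is not drawn, gave 6 lower genes and 1 higher (15.7% and 13.7% of tested genes). Scaled to the germ-cell markers, all 32 genes were higher, as were 92.0% of tested genes.

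Levels between genes were compared in the authors' FPKM, which is per length. In the controls the highest were Rbbp8 at 23.1 ± 3.07 FPKM, Rad50 at 21.3 ± 3.87, Rmi1 at 19.0 ± 0.392, Nbn at 18.8 ± 1.79 and Mre11a at 18.2 ± 2.93 (mean ± SD, n = 3). Neighbours in this order overlapped within 1 SD. Lowest were Fancb at 1.99 ± 0.321 FPKM and Rad51b at 2.00 ± 0.219, followed by Fancf at 3.69 ± 0.592 and Brip1 at 4.82 ± 0.728. Palb2 fell further in FPKM than in counts, from 9.93, 8.04 and 10.4 FPKM in the controls to 4.63, 4.34 and 5.22 FPKM in the knockouts. Its implied length was 2149, 3198 and 2593 bases in control testes against 3730, 3555 and 3593 bases in knockout testes. It was the 1 gene of the 32 whose implied length was longer in every knockout by over 5% (0.967% of 13544 tested genes with a length in all libraries), and 0 were shorter by as much (0.443%). No test was run on FPKM or implied length, and the deposited table gives no counts per isoform.

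Of 52 tested genes from a wider list of recombination and Fanconi factors, 13 fell and 3 rose, with a median of -0.14. That was 25.0% and 5.77%, beside 13.9% and 11.1% of all tested genes. The number that fell was 6 without control library 3 or knockout library 1 (7.63% and 6.59% of tested genes). It was 5 without knockout library 2 (6.19%) and 7 without knockout library 3 (8.56%). In each of these settings 1 rose, where 3.1% to 4.62% of tested genes did. Without control library 2 the number that rose was 7 (13.7%). Those that fell furthest were Cenps, a histone-fold partner of FANCM (-1.17, SE 0.212), Ube2t, the ubiquitin-conjugating enzyme that works with FANCL (-0.95, SE 0.178), and Recql4, a helicase (-0.92, SE 0.136). Their edgeR adjusted p-values were 0.00599, 0.00678 and 0.00281. The 3 that rose were Ercc4, a nuclease of crosslink repair (18.4, 20.2 and 18.6 against 28.3, 28.3 and 29.5 CPM, 0.59, edgeR adjusted p = 0.0048), Polh, a translesion polymerase (0.43, 0.0216), and Brcc3, a deubiquitinase of the BRCA1-A complex (0.39, 0.0293). Polh and Brcc3 lost the call without control library 3 (0.36 and 0.33, adjusted p = 0.0873 and 0.115) or knockout library 1 (0.46 and 0.44, 0.0624 and 0.0638), 2 (0.43 and 0.32, 0.0838 and 0.137) or 3 (0.40 and 0.41, 0.0868 and 0.0793).

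Of 7 tested recombination partners known from meiosis, 3 fell (42.9%, beside 13.9% of all tested genes) and the median was -0.56. Spata22, which binds single strands with MEIOB, was at -2.24, Dmc1, the meiotic recombinase, at -1.43, and Hsf2bp, which binds BRCA2, at -1.22 (edgeR adjusted p = 0.0037, 0.00401 and 0.00279). Spata22 was counted low, with 35, 45 and 49 counts in control libraries against 11, 7 and 6 in knockout libraries. It passed the filter on low counts through the controls, and the size of its fall is imprecise (SE 0.359). Meiob and Spo11 of this list did not pass that filter. Hsf2bp was at 6.17, 6.80 and 6.97 CPM in control testes against 2.79, 2.93 and 2.79 CPM in knockout testes. Of 15 tested genes of end joining, the rival route that needs no template, 2 fell and 1 rose, with a median of -0.05. That was 13.3% and 6.67%, beside 13.9% and 11.1% of all tested genes. Without control library 3 or any 1 knockout library 1 fell and 0 rose. In those settings 6.19% to 8.56% of all tested genes fell and 3.1% to 4.62% rose. The end-joining genes that fell were Nhej1 (-0.70, edgeR adjusted p = 0.0324), a ligation factor, and Xrcc6 (-0.51, 0.00419), a Ku subunit. Dclre1c, which encodes the nuclease Artemis, rose (0.59, 0.0382). Nhej1 and Dclre1c lost the call without control library 3 (-0.65 and 0.56, adjusted p = 0.103 and 0.122) or knockout library 1 (-0.59 and 0.56, 0.128 and 0.123), 2 (-0.84 and 0.55, 0.0604 and 0.125) or 3 (-0.67 and 0.66, 0.102 and 0.0696). None of these lists was compared with the 32 genes by a test.

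Lists of cell division genes and germ-cell markers are given for scale. Of 30 replication genes 15 fell, with a median of -0.41, and of 20 mitosis genes 6 fell, with a median of -0.25. Replication genes that fell numbered 7 without control library 3 or knockout library 1 (7.63% and 6.59% of all tested genes). They numbered 5 without knockout library 2 (6.19%). Mitosis genes that fell numbered 3 in each of these settings. With the length trend removed 12 mitosis genes fell, where 19.5% of all tested genes did. Mki67, a marker of cycling cells, was at 293, 472 and 305 CPM in control testes against 339, 410 and 463 CPM in knockout testes (0.18, edgeR adjusted p = 0.524, and 0.42 with adjusted p = 0.0389 without control library 2). With the length trend removed it was at -0.14. Pan-germ-cell markers had a median of -1.40 and the meiotic list one of -1.75, with Ddx4, a germ-line helicase gene, at -1.31 (SE 0.135). Both lists hold Sycp1, so the first is not made only of genes shared by all germ cells. Somatic cells of the testis also express many repair genes, and these libraries do not separate cell types.

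**Figure D5:**
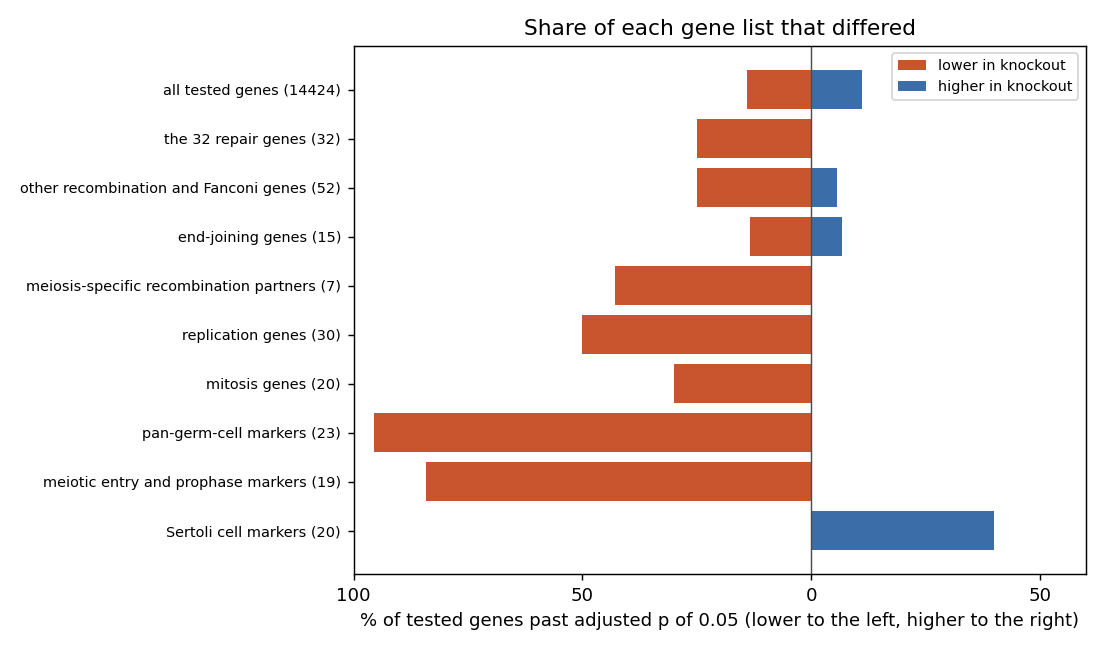
Share of the tested genes of each list (number tested in brackets) that were lower (left) or higher (right) in the knockouts at an edgeR adjusted p under 0.05. The 32 repair genes had 25.0% lower and 0 higher, beside 13.9% and 11.1% of all tested genes. Scaled to the germ-cell markers, the 32 repair genes were all higher, as were 92.0% of tested genes.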

How the data were processed

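The 32 genes and all lists were chosen with earlier results of these data known. For each library, the authors deposited an estimated count and an FPKM for every gene, per the file headers. StringTie 1.3.1 and RSEM are named, with no role, in the submitters' processing notes. Nothing used here states the aligner, build, annotation or strandedness. The deposited counts are whole numbers and were used as such. They were read as rounded estimates because an FPKM above 0 stood beside a count of 0 for 3 to 21 genes in each library. Deposited FPKM values served for levels between genes and for implied lengths, without a test.

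IDs were named from a reference table, without a match for 55 of 22274. Of the 32 genes, 30 had the same symbol in the deposited table, and Mre11a and Fance were matched by ID. The RefSeq gene table has another protein-coding gene overlapping 12 of the 32 (Fancd2, Fanci and Rad54l among those that fell), whose reads may be shared.

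Genes were kept by filterByExpr (minimum count 10), which left 14424 and dropped 0.063% of counts. Tests used edgeR 4.0.16 (glmQLFit, glmQLFTest, TMM, no covariates) in R 4.3.3, with Benjamini-Hochberg adjustment over all tested genes and a threshold of 0.05. The SE is the log2 fold change over the square root of F. The procedure was tested on simulated counts with known changes. These were drawn with a common dispersion and without a trend on length, so they do not bear on the results by length. Genes named beside the 32 were Dtl, Dmc1, Ddx4 and Mki67, and up to 3 called genes per direction with the largest change in each of 3 lists. Alternatives were DESeq2 1.42.0, limma-voom (limma 3.58.1), RLE, upper-quartile, total-count and pan-germ-cell scaling, no filter, a filter at 1 CPM or more in 3 or more libraries, a length trend removed from each library (lowess, span 0.3), the replicate number as a block, and each library left out. Lists and genes were described by counts and medians, with no set test. Firrm, Hrob, Shld3 and Meiosin of the lists were not matched and are not used here. Some genes of the lists and of the naming rule are not reported here.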

Additional observations from a re-analysis of the deposited data

How the results depend on the processing

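The number of lower genes among the 32 was 8 to 10 with DESeq2, limma-voom, RLE, upper-quartile or total-count scaling and both filters, with the 8 genes called first kept in each, and 0 higher. In these settings 11.0% to 16.8% of all tested genes were lower. Among the 32 it was 16 with the length trend removed, 0 (with 32 higher) scaled to the pan-germ-cell markers, and 4 to 16 with any 1 library left out, where 0 to 1 were higher. Of all tested genes 19.5%, 0.77% (with 92.0% higher) and 6.19% to 19.7% were lower in these settings. The replicate number as a block left 5 lower genes of the 32 (10.9% of all tested genes), without Bard1, Palb2 and Fance. Deviations from the group means correlated at -0.072, -0.078 and 0.07 between same-numbered libraries, and at -0.224 to 0.225 between the others. No library correlated best with its own number. With 3 libraries per group, such correlations cannot tell whether the numbers stand for pairs, which the labels do not state. Over all genes, any 1 library left out gave 903 to 2863 lower and 452 to 2393 higher, and pan-germ-cell scaling 111 and 13271. The median of the 32 genes turned to 1.16 with that scaling and was -0.34 to -0.19 with any 1 library left out. The median of all tested genes turned to -0.04 with total counts.

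Scaled to the pan-germ-cell markers, these log2 fold changes turned: Mre11a 1.19, Rad50 1.17, Nbn 1.31, Rbbp8 1.06, Exo1 0.74, Brca1 1.12, Bard1 0.99, Brip1 1.32, Palb2 0.95, Brca2 1.27, Rad51b 1.09, Rad51c 0.63, Rad51d 1.38, Xrcc2 1.40, Rad54l 0.86, Rad54b 1.15, Fanca 1.01, Fancc 1.29, Fance 1.03, Fancf 1.20, Fancg 1.12, Fancl 1.18, Fancm 1.29, Fancd2 0.69, Fanci 0.57, Blm 1.15, Rmi1 1.28, Eme1 1.03, Cenps 0.18, Ube2t 0.45, Recql4 0.50, Nhej1 0.70, Xrcc6 0.89, Hsf2bp 0.18, Dtl 1.10 and Ddx4 0.10, where the median of all genes was 1.42. Ddx4 belongs to the markers that set this scaling, so its value is not independent of it. Mki67 turned to -0.14 with the length trend removed. With any 1 library left out the values ran from -0.49 to 0.08 for Brca2, -0.08 to 0.01 for Rad51d, -0.11 to 0.03 for Xrcc2, -0.35 to 0.07 for Fancm and -0.02 to 0.15 for Mus81. The cause of these changes was not tested, beside the smaller groups when a library is left out. Counts of 59 to 132 for Fancf and 44 to 74 for Rad51b limit their precision.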
